A study of Saccharomyces cerevisiae BY4741 with 9 samples.

Results

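The genes described here encode the proteins of the cytosolic small ribosomal subunit (40S) of budding yeast, measured by RNA sequencing in WT (wild type) cells and in cells with the scc2-4 allele. They were taken by name, as the RPS genes with a number and an optional A or B, plus ASC1, leaving out chromosomes I and IX. This gave 56 of the 7130 features of the deposited table, on 13 chromosomes. RPS24B lies on chromosome IX and was left out, so RPS24A is described without its copy. The members were 23 complete A/B paralog pairs, RPS24A and 9 genes without a copy, among them RPS2, RPS3, RPS12, RPS20, RPS31 and ASC1.

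The scc2-4 allele is a mutant form of SCC2, whose product acts with Scc4 to load cohesin, the ring complex that holds sister chromatids together, onto chromosomes. Both genotypes are BY4741 strains grown in YPD with added CSM (a complete amino acid supplement) and harvested in exponential phase at an optical density of 0.7. The labels list 3 scc2-4 libraries made after ribosomal RNA depletion, 3 WT libraries made the same way and 3 WT libraries made from total RNA, and the series' design names 3 biological replicates. The table has 3 WT and 3 scc2-4 columns, and the WT column names give no preparation. If the WT columns were the total RNA libraries, genotype and preparation cannot be told apart in any comparison below. The BY4741 label was checked on marker genes: LEU2 and MET17, which this strain lacks, were listed at 0 in all 6 libraries, and URA3 was at most 0.0600 RPKM, while HIS3, only part of which is deleted in BY4741, was at 38.7 to 55.3 RPKM. STE2, the receptor gene of MATa cells, was at 248 to 499 RPKM, against 0.720 to 2.32 RPKM for STE3, the receptor gene of MATalpha cells.

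Levels are given as RPKM, the reads of a feature per kilobase of its span for every 1000000 reads assigned to any feature. Library totals ran from 14730000 to 21930000 assigned reads, and every member value rested on 439 to 80499 reads. Genotypes were compared with limma on log2(RPKM + 1), each library centred on its median feature, with Benjamini-Hochberg adjustment over the 6559 features whose mean RPKM reached 1, at a threshold of 0.05. Log2 changes are scc2-4 minus WT on that scale. Folds come from the same scale. All 56 members were tested.

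The small subunit decodes messenger RNA and is built from 18S ribosomal RNA and the proteins encoded here. Most yeast ribosomal protein genes exist as a pair of paralogs left from an ancient genome duplication, and many carry an intron, which is rare in yeast. Their transcription is high during fast growth and depends on Rap1, on Fhl1 with its coactivator Ifh1, and on TOR and nutrient signals through Sfp1 and Sch9. Proteins made in excess of ribosome assembly are degraded, and several ribosomal proteins feed back on the splicing or decay of their own mRNA.

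The coding sequences of the RPS28 pair are shown because the copies are nearly equal in protein but differed most of all pairs in log2 change between genotypes. Both lack an intron, and each coding sequence has 204 bases, of which 24 differ. They encode 67 residues, of which 1 differs. RPS28A lies at chrXV:648804-649007 on the minus strand and RPS28B at chrXII:673131-673334 on the plus strand. The sequences are from the RefSeq R64 reference, the same build as sacCer3, and capitals mark the positions where the copies differ.
RPS28A: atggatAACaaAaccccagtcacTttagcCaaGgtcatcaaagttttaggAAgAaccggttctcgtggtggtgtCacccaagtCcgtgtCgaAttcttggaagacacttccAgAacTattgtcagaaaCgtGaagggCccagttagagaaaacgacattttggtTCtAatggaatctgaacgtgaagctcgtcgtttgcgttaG
RPS28B: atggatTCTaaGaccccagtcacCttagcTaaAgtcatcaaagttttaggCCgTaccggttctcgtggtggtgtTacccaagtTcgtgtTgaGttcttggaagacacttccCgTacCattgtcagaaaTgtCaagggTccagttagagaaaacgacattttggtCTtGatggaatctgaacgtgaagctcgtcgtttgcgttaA
The last 120 coding bases of the RPS0 pair, positions 640 to 759, are shown because both copies passed the test and this end carries many of their differences. They lie at chrVII:921669-921788 for RPS0A and chrXII:243230-243349 for RPS0B, both on the plus strand, and capitals mark the 21 positions that differ when the copies are set base by base.
RPS0A: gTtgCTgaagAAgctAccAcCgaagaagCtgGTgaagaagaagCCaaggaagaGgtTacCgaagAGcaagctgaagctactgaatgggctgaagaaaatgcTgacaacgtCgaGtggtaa
RPS0B: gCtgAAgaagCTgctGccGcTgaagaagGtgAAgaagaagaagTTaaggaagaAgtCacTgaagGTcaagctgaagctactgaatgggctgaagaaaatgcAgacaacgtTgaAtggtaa

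Of the 56 members, 5 were higher in scc2-4 and 0 were lower, and 51 did not pass the test. The 5 were RPS0A, RPS0B, RPS6B, RPS9A and RPS28B, which all belong to A/B pairs. They are 8.93% of the members, while 17.5% of all features tested were called higher and 15.0% lower, so the share of members called higher lay below that of features in general. Without WT replicate 1, 6 members were called higher and 0 lower, where 20.7% of all features were higher, 16.5% lower and 37.2% called either way. With all libraries, 32.5% were called either way. For the count of 0 lower, 0 of the 4 members below 0 had an unadjusted limma p under 0.05, and the 19 members that had were all above 0. Those 4 include RPS22B, whose deposited value carries reads of another transcript, as described for the RPS22 pair. Over all features tested, 3054 of 6559 had an unadjusted limma p under 0.05. By other fits, 3 members were called lower by a limma fit with library weights and 2 after centring on the median 40S gene. In bulk RNA, a level changed in every cell and a changed share of cells in some growth or cell cycle state cannot be told apart.

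RPS28B had the largest change of any member. Its product lies near the mRNA exit of the 40S subunit, and in yeast the Rps28 protein acts with Edc3 to promote decay of the RPS28B mRNA. RPS28B was at 147, 215 and 224 RPKM in WT and at 413, 427 and 705 RPKM in scc2-4. The groups were far apart, with the lowest mutant library well above the highest WT library. Its mean rose from 195 ± 42.3 to 515 ± 165 RPKM (SD, n = 3 per genotype), a log2 change of 1.38 (SE 0.28, 2.61-fold, limma adjusted p = 0.0134). The call held in all 20 alternatives tried, with limma adjusted p from 2.92e-04 to 0.0429. RPS28A, the copy that supplied most of the RPS28 transcript, was at 2510, 3269 and 3229 RPKM in WT and at 3071, 3106 and 4260 RPKM in scc2-4. The RPS28A groups overlapped, and its log2 change of 0.22 did not pass the test (SE 0.20, limma adjusted p = 0.431).

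RPS9A, at chrXVI:404950-406044 on the plus strand, was the member with the lowest WT level per span. It encodes a protein at the mRNA entry side of the subunit that takes part in decoding accuracy. RPS9A was at 30.0, 49.1 and 49.9 RPKM in WT and at 82.8, 84.3 and 99.2 RPKM in scc2-4. Every mutant library was above every WT library. Its mean rose 2.1-fold, from 43.0 ± 11.3 to 88.8 ± 9.06 RPKM (log2 change 1.07, SE 0.23, limma adjusted p = 0.0167). Without WT replicate 1 the log2 change was 0.79, and the call ended without scc2-4 replicate 2 or 3 (limma adjusted p = 0.0589 and 0.0683, against 1.34e-04 to 0.0683 over all alternatives). Its copy RPS9B, at 940 ± 158 RPKM in WT and 1298 ± 152 RPKM in scc2-4, did not pass (log2 change 0.48, limma adjusted p = 0.0888).

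RPS0 was the one pair with both copies called. It encodes a protein of the ribosomal S2 family, needed for late maturation of the subunit's RNA. RPS0B was at 854, 1038 and 1133 RPKM in WT and at 1657, 1817 and 1787 RPKM in scc2-4, groups well apart and each narrow. Its mean rose 1.76-fold, from 1008 ± 142 to 1754 ± 84.9 RPKM (log2 change 0.82, SE 0.16, limma adjusted p = 0.0124). RPS0A was at 366, 489 and 519 RPKM in WT and at 631, 713 and 803 RPKM in scc2-4. These groups did not overlap either, and the mean rose 1.58-fold, from 458 ± 81.1 to 716 ± 85.8 RPKM (log2 change 0.66, SE 0.20, limma adjusted p = 0.0388). The RPS0B call ended without scc2-4 replicate 2 or 3 (limma adjusted p = 0.0560 and 0.0545, against 8.22e-05 to 0.0560 over all alternatives). The RPS0A call ended without WT replicate 2 or any scc2-4 replicate and after centring on the median 40S gene, with limma adjusted p from 0.0652 to 0.132 in these fits and from 0.00125 to 0.132 over all alternatives.

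RPS6B encodes, like its copy RPS6A, the 40S protein that is phosphorylated in response to TOR signals. It was at 216, 266 and 320 RPKM in WT and at 401, 359 and 453 RPKM in scc2-4. The groups were adjacent but separate. Its mean rose 1.53-fold, from 267 ± 52.3 to 404 ± 47.2 RPKM (log2 change 0.62, SE 0.20, limma adjusted p = 0.0483). RPS6A, at 261 ± 43.7 and 337 ± 39.0 RPKM, did not pass (log2 change 0.39, limma adjusted p = 0.143). The copies share 99.2% of coding bases, so their reads may be split between them in an unknown way. The RPS6B call held in 11 of 20 alternatives, and it ended without WT replicate 2, without any scc2-4 replicate and under 5 other settings of filter, scaling or variance model (limma adjusted p up to 0.155 where it ended, and from 0.00154 over all alternatives).

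Another 13 members had an adjusted p between 0.05 and 0.1, all with a level above WT, and did not pass. The share of all features in that range was not counted, so the 13 are described and not read as a result about the members. Nearest the threshold was RPS1B, a platform protein of the subunit, at 1670, 2163 and 2329 RPKM in WT and at 2875, 2820 and 3482 RPKM in scc2-4 (log2 change 0.59, SE 0.19, limma adjusted p = 0.0521). Its groups did not overlap. RPS23B, whose product sits in the decoding centre, had a log2 change of 0.58 (SE 0.19, limma adjusted p = 0.0573). RPS14B, whose splicing is repressed by Rps14 protein in yeast, was at 217 ± 46.4 RPKM in WT and 311 ± 20.6 RPKM in scc2-4 (log2 change 0.55, SE 0.20, limma adjusted p = 0.0731, and 0.0319 without WT replicate 1, against 0.0139 to 0.200 over all alternatives). The largest change among these was that of RPS27A, a zinc-binding protein gene, at 0.67 (SE 0.26, limma adjusted p = 0.0804). RPS11A (0.58), RPS17B (0.58), RPS25B (0.57) and RPS10A (0.56) had log2 changes of like size with limma adjusted p from 0.0740 to 0.0969. RPS24A had a log2 change of 0.45 (SE 0.19, limma adjusted p = 0.102).

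**Figure D1:**
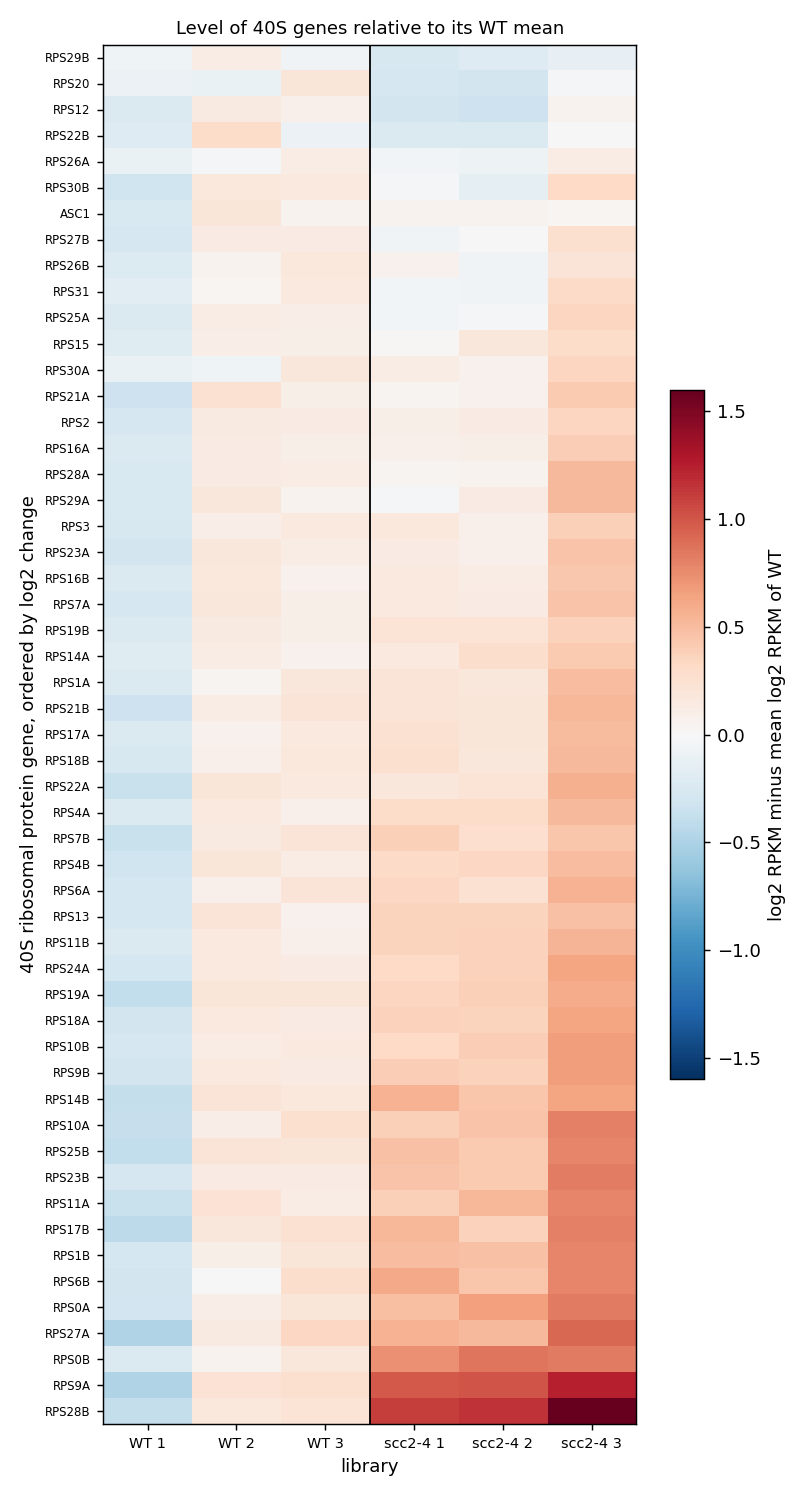
Heat map of the members reported here (rows) in the 6 libraries (columns), coloured by log2 RPKM minus the gene's mean log2 RPKM in WT, without centring of the libraries. WT replicate 1 is the lowest column for most genes and scc2-4 replicate 3 the highest, and RPS28B and RPS9A stand out among the mutant libraries.

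The members moved together across libraries. Their median log2 difference from the WT mean, by replicate number, was -0.35, 0.17 and 0.19 for the WT libraries and 0.22, 0.24 and 0.54 for the mutant libraries. WT replicates 2 and 3 and scc2-4 replicates 1 and 2 thus had nearly the same median, and WT replicate 1 and scc2-4 replicate 3 lay at the ends. Of the 56 members, 55 had their lowest WT value in WT replicate 1, as had 40.8% of all features, and 49 had their highest value of all libraries in scc2-4 replicate 3. The share of all features with their highest value in scc2-4 replicate 3 was not counted. The part of WT replicate 1 and of scc2-4 replicate 3 in these levels was not tested beyond leaving each out.

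Across members the median log2 change was 0.33 (1.26-fold), against 0.05 over all features tested, and values ran from -0.18 to 1.38. Leaving out WT replicate 1 gave 0.16 and leaving out scc2-4 replicate 3 gave 0.22, while the median was between 0.38 and 0.44 without any of the other libraries. The change was above 0 in 52 members, while 54.2% of all features had a change above 0. The groups of libraries did not overlap in 28 members, all higher in scc2-4, where 31.0% of all features did not overlap in that direction and 25.1% did not overlap in the other (56.1% either way). The median SE of a member was 0.19, against 0.13 over all features. The part of the SE in the share of calls was not tested.

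As a share of all reads assigned to features, the members took 3.93%, 5.04% and 5.08% in WT and 5.18%, 5.21% and 6.18% in scc2-4. The genotypes did not overlap but came within a narrow gap, at 4.68% ± 0.653 against 5.52% ± 0.566 (SD, n = 3 each), a difference of 0.838 points. Without WT replicate 1 the difference was 0.461 points, and without scc2-4 replicate 3 it was 0.511 points. With 3 libraries a genotype, a two-sided exact permutation test cannot go below p = 0.1.

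Relative to the median 40S gene, the calls differed in part. With each library centred on the median member, an alternative added after the data were seen, the median change over all features was -0.21. In that fit 4 members were higher and 2 lower, while 4.31% of all features were called higher and 6.89% lower (11.2% either way). Higher were RPS28B at 1.13, RPS9A at 0.82, RPS0B at 0.56 and RPS1B at 0.34 (log2 changes, limma adjusted p = 0.00809, 0.0229, 0.0207 and 0.0465). Lower were RPS12 at -0.43 and RPS20 at -0.44 (limma adjusted p = 0.0155 and 0.0362). RPS20 encodes a protein of the subunit's head and RPS12 a head protein of eukaryotic ribosomes.

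None of the 9 genes without a copy passed the test, and their median log2 change was 0.17, against 0.38 in the 47 members of an A/B pair, of which 5 (10.6%) passed. Both shares lay below the 17.5% of all features called higher. RPS31, which encodes ubiquitin fused to a 40S protein and had the highest level of all members, was at 6409, 7400 and 8081 RPKM in WT and at 7025, 6978 and 8965 RPKM in scc2-4 (log2 change 0.08, SE 0.18, limma adjusted p = 0.752). ASC1, the yeast form of the signalling scaffold RACK1, was at 2422, 3276 and 2972 RPKM in WT and at 2982, 2980 and 2923 RPKM in scc2-4 (log2 change 0.06, SE 0.16, limma adjusted p = 0.799). The ASC1 mutant libraries were tightly grouped inside the WT range. RPS12, at 5195 ± 701 RPKM in WT and 4562 ± 710 RPKM in scc2-4, and RPS20, at 5232 ± 644 and 4570 ± 500 RPKM, had log2 changes of -0.18 each, with limma adjusted p = 0.477 and 0.399. Only RPS29B (-0.18) and, as deposited, RPS22B (-0.14) were also below 0. Most reads of RPS22B are those of a small nucleolar RNA in its intron, and its other reads were higher in scc2-4, as described for the RPS22 pair.

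**Figure D2:**
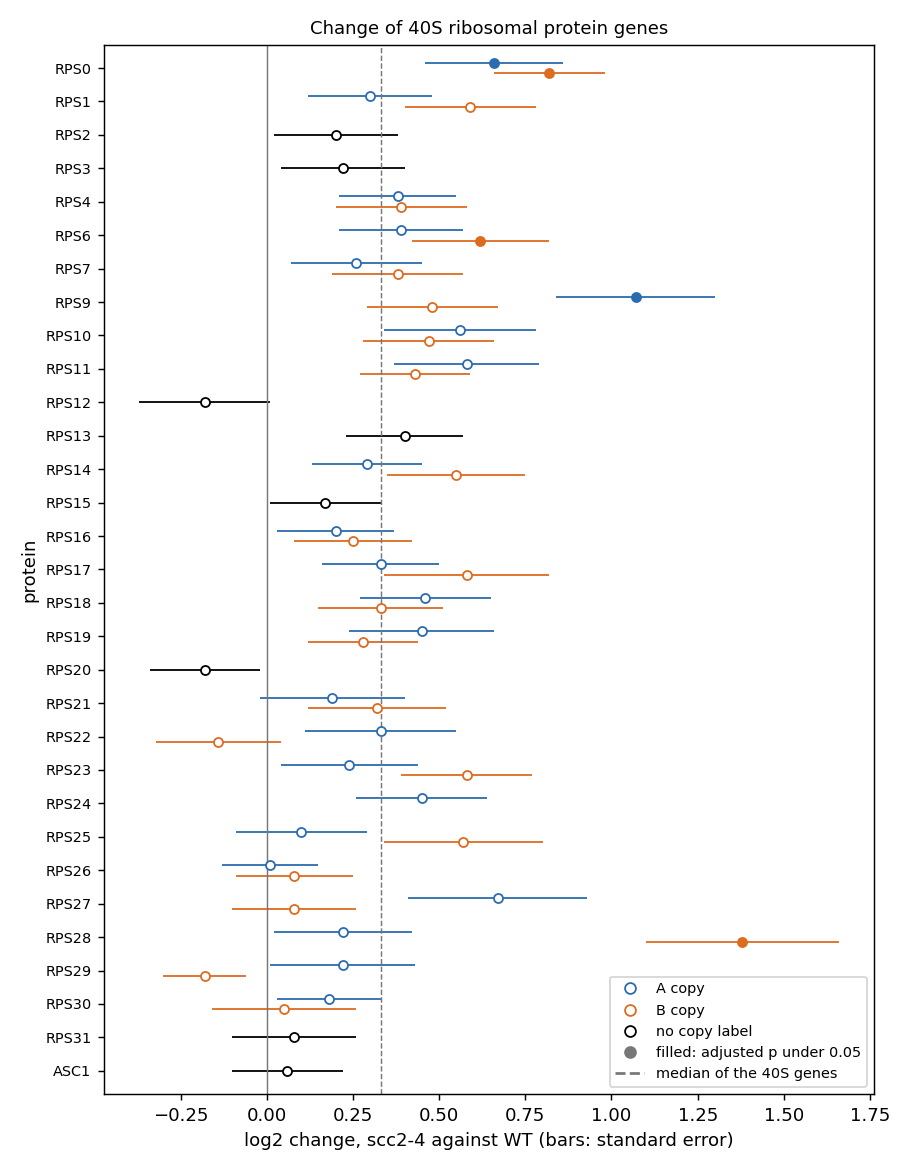
Log2 change (scc2-4 minus WT) of the members reported here with the SE, by protein, with the A and B copies and the genes without a copy marked apart, points past the threshold filled and the median of the members dashed. The copies of RPS28 and of RPS9 lie far apart, those of RPS0 are both high, and no gene without a copy passed the test. The RPS22B value includes reads of a small nucleolar RNA.

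The balance between copies was described as the share of the A copy in the pair's RPKM. In WT the copies differed 1.01-fold to 21.8-fold in level, with a median of 1.93-fold. In 14 of the 23 pairs the A share did not overlap between genotypes, and it was higher in scc2-4 in 6 and lower in 8. RPS22 is among the 6 only with the values as deposited, as described for that pair. The A share did not overlap in 16 of the 29 pairs of the large subunit, and in 57.7% of the 52 pairs of both subunits, which include the 40S pairs. The 40S pairs were thus near that background. In 14 of 23 pairs the copy with the lower mean level over all 6 libraries had the higher log2 change. This held in 19 of the 29 pairs of the large subunit and in 63.5% of the 52 pairs. The median excess of that copy in the 40S pairs was 0.13. RPS22 is not among these 14 with the values as deposited.

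RPS28 and RPS27 had shifts of almost equal size toward the minor copy. The RPS28A share was 94.5%, 93.8% and 93.5% in WT and 88.1%, 87.9% and 85.8% in scc2-4, a difference of -6.65 points, so that RPS28B made up 6.06% of the pair in WT and 12.7% in scc2-4. RPS28B thereby stayed the minor copy in every library. The RPS27A share was 15.4%, 17.5% and 19.5% in WT and 24.4%, 23.0% and 25.1% in scc2-4, a difference of 6.68 points. RPS27B itself was at 1282 ± 195 RPKM in WT and 1342 ± 159 RPKM in scc2-4 (log2 change 0.08, limma adjusted p = 0.743). Of the RPS27A reads, 48.4% to 53.5% lie where YKL156C-A overlaps it on the other strand, and without them RPS27A was still higher in every mutant library.

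RPS9 had the most unequal pair in WT. The RPS9A share was 3.81%, 4.51% and 4.65% in WT and 6.36%, 6.56% and 6.31% in scc2-4, a difference of 2.08 points with no overlap. For RPS1 the A share was 46.3% in WT and 41.3% in scc2-4, and for RPS23 it was 48.6% ± 0.740 and 42.7% ± 0.317. The RPS23 shares were thus tight within each genotype, although the RPS23 proteins are identical between copies. RPS25 (79.9% and 74.3%) and RPS6 (49.5% and 45.5%) also had a lower A share in the mutant, and RPS29 (26.1% and 31.9%) a higher one. The RPS4 share was 49.8% in WT and 49.7% in scc2-4, and that of RPS0, where both copies were called, was 31.1% and 28.9%, with overlapping groups for both pairs. The RPS4 copies share 98.1% of coding bases and the RPS6 copies 99.2%, so the reads of both pairs may be split between copies in an unknown way.

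**Figure D3:**
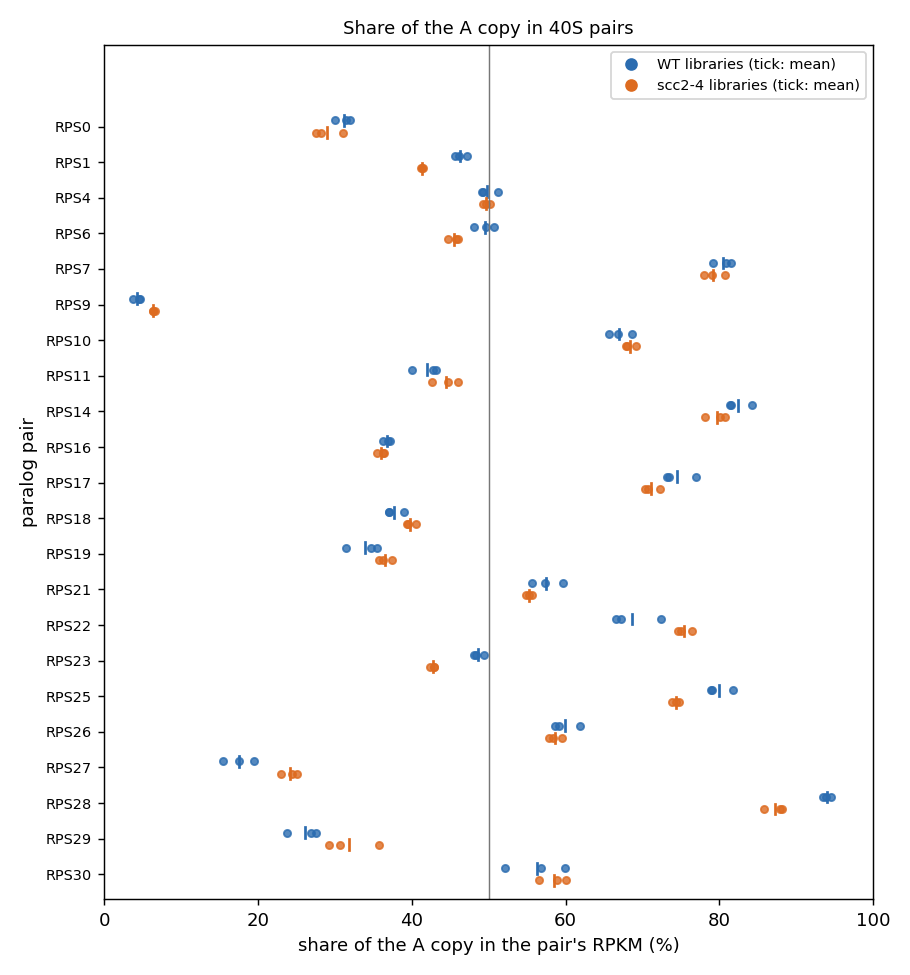
Share of the A copy in the summed RPKM of the pairs reported here, in percent, with a point for each library and a tick for the mean of each genotype. RPS28, RPS27, RPS25 and RPS23 separate the genotypes clearly, while RPS4 and RPS16 lie nearly on top of each other; the RPS22 values include reads of a small nucleolar RNA.

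RPS22 is a pair whose deposited values carry another transcript. The intron of RPS22B, at chrXII:856442-857317 on the plus strand, holds SNR44, a small nucleolar RNA that guides pseudouridylation of ribosomal RNA. Its 211 bases, at chrXII:856710-856920 on the plus strand, are shown because reads from them make up most of the RPS22B value.
SNR44: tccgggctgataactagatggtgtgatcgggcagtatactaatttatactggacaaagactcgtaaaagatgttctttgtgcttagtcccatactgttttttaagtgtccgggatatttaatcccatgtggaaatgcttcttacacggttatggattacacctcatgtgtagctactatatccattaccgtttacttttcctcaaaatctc
SNR44 accounted for 72.4%, 74.6% and 64.2% of the reads given to RPS22B in WT and for 56.9%, 55.6% and 55.4% in scc2-4. SNR44 itself was at 2365, 3458 and 2271 RPKM in WT and at 1822, 1786 and 2096 RPKM in scc2-4 (log2 change -0.47, SE 0.20, limma adjusted p = 0.104). Its log2 change was -0.26 without WT replicate 2 and -0.59 without WT replicate 1, where it passed (limma adjusted p = 0.0423, against 4.74e-04 to 0.247 over all alternatives). These groups did not overlap, with the mutant lower. The deposited RPS22B value was 915 ± 174 RPKM in WT and 816 ± 80.3 RPKM in scc2-4. Reads outside SNR44, over the coding length, were at 481, 629 and 675 in WT and at 738, 763 and 904 in scc2-4, with no overlap. The log2 ratio of these group means was 0.43, in the direction opposite to SNR44. It was taken without centring and was not tested, unlike the limma log2 changes. The RPS22A share moved from 68.7% to 75.3% with the deposited values, which are per span. With SNR44 left out and reads taken over the coding length, it moved from 77.1% ± 1.07 to 75.7% ± 0.798, and the groups overlapped. The divisors differ, so only the change between genotypes can be set side by side, not the level of the shares.

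**Figure D4:**
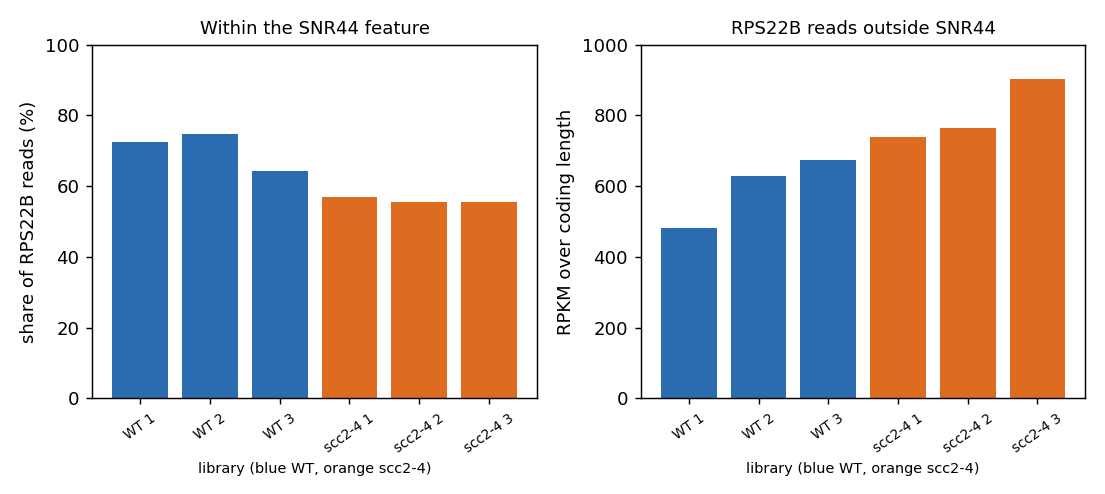
Left, percent of the RPS22B reads of each library that lie in SNR44; right, the reads outside SNR44 as RPKM over the coding length, with a bar for each library. The SNR44 share is lower in the 3 mutant libraries, and their remaining level, from 738 to 904, lies above that of the WT libraries, from 481 to 675.

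Similarity between copies touches the levels themselves. Of the 56 members, 27 have only coding windows of 50 bases that occur once in the reference genome. In both RPS6 copies, which share 99.2% of coding bases, 27.3% of the windows do. The subunit holds each protein once, and summed over copies and divided by the coding length, WT levels ran from 804 RPKM for RPS6 through a median of 2824 RPKM to 7281 RPKM for RPS31. RPS6 was the lowest of the 32 proteins on this scale. Divided by the unique windows instead, RPS6 was at 3194 RPKM, near the median of 3526 RPKM, and the range over proteins narrowed from 9.06-fold to 4.17-fold. No source used here gives the read length or the treatment of reads that match several places, and the part of shared sequence in these levels was not tested further. Comparisons between genotypes within a gene use the same divisor in every library, so this scale does not alter their folds. However, reads of RPS6A and RPS6B may be split between copies in an unknown way. The same holds for RPS4A and RPS4B, where 52.3% of the windows occur once.

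**Figure D5:**
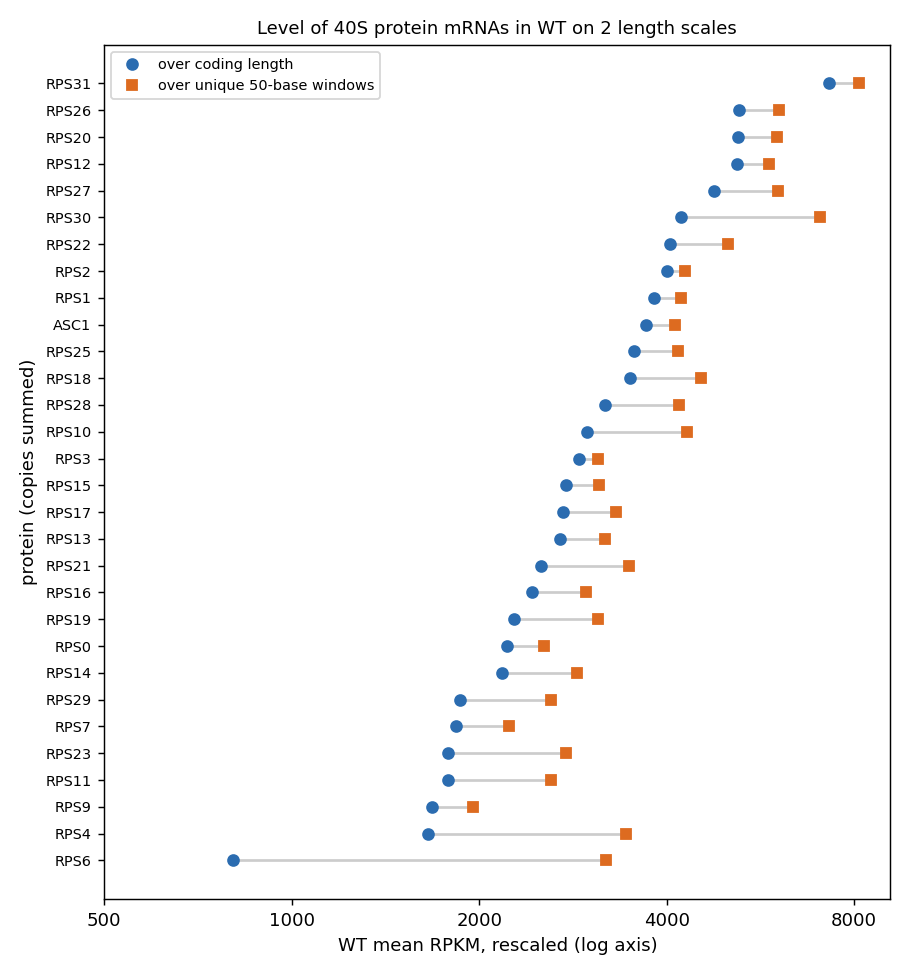
WT level of the proteins of the 40S subunit reported here, each summed over its copies, as RPKM over the coding length and over unique 50-base windows on a log axis; the RPS22 value includes SNR44 reads. RPS6 is lowest on the coding length scale, at 804 RPKM, and lies at 3194 RPKM on the other.

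The members' features that the name rule did not use were introns, level and promoter letters. An intron is present in 36 members, and 20 have none. With an intron, 4 of 36 were called higher, the median log2 change was 0.39 and 23 had groups that did not overlap. Without one, 1 of 20 was called, the median was 0.22 and 5 did not overlap. These are 11.1% and 5.0% called, both below the 17.5% of all features called higher, and 63.9% and 25.0% not overlapping, against 31.0%. Without WT replicate 1 the medians were 0.21 and 0.05. The log2 change was larger for members of lower level, with r = -0.59 and rho = -0.57 across the 56 genes, which share the same 6 libraries and are not independent replicates. Over the 60S genes these values were -0.28 and -0.29, and over all features -0.06 and -0.02.

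Promoter letters were read from 250 bases before to 50 bases after the start of the coding sequence, on both strands. ACCCNNACA, the core of the Rap1 site, was found in 4 members (7.14%), which were RPS1A, RPS10B, RPS13 and RPS19A, in 8 of 77 genes of the 60S set (10.4%) and in 2.83% of 6001 promoters. TTACCCG, the Reb1 site, was found in 2 members (3.57%), against 7.08% of promoters, and AAAATTTT, an element of ribosome biogenesis genes, in 4 members (7.14%), against 9.03%. None of the 5 called members held the Rap1 letters in this window. The matches of RPS13, RPS1A and RPS19A began 230, 245 and 246 bases before the start, near the far end of the window. Sites further upstream, or with other letters, would be missed by this search, so a promoter without a match may still hold a Rap1 site.

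The genes of the large subunit (60S) served as the nearest comparison. Of 77, 5 were called higher and 1 lower, the median log2 change was 0.28, and 41.6% did not overlap and were higher in scc2-4. Their 6.49% called higher lay below the 17.5% of all features, and 31.0% of all features did not overlap in that direction. They took 5.58% ± 0.711 of reads in WT and 6.44% ± 0.596 in scc2-4. Reads of 40S genes per read of 60S genes were 0.825, 0.835 and 0.854 in WT and 0.849, 0.856 and 0.866 in scc2-4. The ratio overlapped between genotypes, at 0.838 ± 0.0147 and 0.857 ± 0.00891.

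Of 13 regulators of ribosomal protein transcription, 4 were higher, 0 were lower and 9 did not pass, with a median log2 change of 0.24. Over all features 17.5% were called higher and 32.5% either way. IFH1, the coactivator, was at 4.94, 8.05 and 9.71 RPKM in WT and at 17.6, 16.2 and 15.5 RPKM in scc2-4, a clear separation. It rose 2.11-fold (log2 change 1.08, SE 0.24, limma adjusted p = 0.0171). FHL1, its DNA-bound partner, rose 1.40-fold, from 10.9 ± 0.927 to 15.7 ± 1.49 RPKM (limma adjusted p = 0.0258), and SCH9, the TOR-controlled kinase, rose 1.49-fold, from 11.2 ± 0.950 to 17.0 ± 1.74 RPKM (limma adjusted p = 0.0168). TOD6, a repressor of ribosome biogenesis genes, was at 1.62 ± 0.533 RPKM in WT and 5.58 ± 0.649 RPKM in scc2-4. Its fold was 2.56 on the log2(RPKM + 1) scale, which understates the change at so low a level (limma adjusted p = 0.00598). RAP1 (0.12), SFP1 (0.28), DOT6 (-0.38) and HMO1 (-0.30) had log2 changes that did not pass, with limma adjusted p from 0.0525 to 0.550.

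Of the 5 chaperones and assembly factors of 40S proteins, 3 were higher, and their median log2 change was 0.74, while 17.5% of all features were called higher. TSR2, the Rps26 chaperone, was at 15.5, 25.0 and 32.7 RPKM in WT and at 58.2, 60.4 and 67.4 RPKM in scc2-4, where every mutant library was far above WT. It rose 2.60-fold (log2 change 1.38, SE 0.27, limma adjusted p = 0.0129). YAR1, the Rps3 chaperone, rose 1.77-fold, from 45.2 ± 7.26 to 79.5 ± 3.50 RPKM (limma adjusted p = 0.0120), and LTV1, an assembly factor that binds Rps3 and Rps20, rose 1.67-fold, from 27.9 ± 5.32 to 46.5 ± 2.56 RPKM (limma adjusted p = 0.0193). FAP7 (0.51) and TSR4 (0.25) did not pass (log2 changes, limma adjusted p = 0.0579 and 0.139). RPS3 and RPS20, whose products YAR1 and LTV1 serve, were not called.

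Among 8 factors that bind the 40S subunit, 1 was higher and 1 lower, with a median log2 change of 0.17, where 32.5% of all features were called either way. MBF1, which keeps the reading frame at stalled ribosomes, was at 1960, 1430 and 1561 RPKM in WT and at 825, 707 and 783 RPKM in scc2-4. The groups were wide apart, and it fell to 0.475 of the WT level (log2 change -1.07, SE 0.13, limma adjusted p = 0.00317). HCR1, a factor bound to initiation factor 3 that also acts in ribosome recycling, rose 1.34-fold, from 126 ± 7.70 to 168 ± 7.65 RPKM (limma adjusted p = 0.0190). The calls of TOD6 and MBF1 held without any single library, with limma adjusted p of at most 0.0343 and 0.0231. Those of FHL1, IFH1, SCH9, YAR1, TSR2, LTV1 and HCR1 ended without scc2-4 replicate 3, for all but YAR1 also without scc2-4 replicate 2, for FHL1, IFH1 and LTV1 without scc2-4 replicate 1, and for FHL1 and SCH9 without WT replicate 2 (limma adjusted p from 0.0509 to 0.0966). Centring on the median 40S gene ended the calls of FHL1, SCH9, HCR1, LTV1 and YAR1 (limma adjusted p = 0.473, 0.332, 0.555, 0.116 and 0.0561). Over all alternatives the lowest limma adjusted p of these 7 genes ran from 3.44e-05 for TSR2 to 6.75e-04 for HCR1.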

How the data were processed

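RNA sequencing values of 3 WT and 3 scc2-4 libraries were used. The authors deposited RPKM values for 7130 features. Reads were aligned with Bowtie to sacCer3, per the submitters' processing notes. No source used here gives the aligner's version, the counting tool, any use of strand or the treatment of reads that match several places. Multiplying the deposited RPKM by the feature's span (end minus start, introns included) gave sums of 999999 to 1000000 per column, so values are relative to reads assigned to features. Steps of the low RPKM values gave the depth: 14730000, 17480000 and 17670000 reads in WT and 18310000, 21930000 and 14930000 in scc2-4. All values below the limit used for this lay within 0.1 of a whole read.

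Tests used log2(RPKM + 1) with the median feature of a library set to 0, over features whose mean reached 1 RPKM. On this scale a fold understates the change of low genes. The comparison of genotypes was made in limma 3.58.1 under R 4.3.3 (empirical Bayes with a trend, two-sided), with Benjamini-Hochberg adjustment over all features tested. Python 3.11.15, numpy 2.4.6, pandas 2.3.3, Biopython 1.88 and matplotlib 3.10.9 were used for the rest. On simulated data with 200 changed features the fit called 81.8% of those changed 1.5-fold and 100% of those changed 2-fold or 4-fold, among 6527 tested, and 2.62% of its calls were false. Every simulated feature had the same SD, the median over features, and no deviation was shared within a library. In the data the median SE was 0.19 for members and 0.13 over all features, so these rates do not give the recovery of members. Positions and sequences came from the RefSeq R64 reference, in which all 56 members have the table's start and end.

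Members, gene lists, tests and alternatives were chosen with earlier results of these data known. The genes named were every member past the threshold, then those with the largest change up to 24 members, the 3 pairs whose copies differed most in log2 change, ASC1, the proteins of highest and lowest level, and every gene of 3 lists (transcription regulators, 40S protein chaperones, 40S-bound partners) past the threshold. Other members and genes are named as examples chosen after their values were seen. The WT columns were grouped by genotype only. The libraries not held in the table were not analysed here. Some members count in the totals but are not reported here by name or in figures.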

Additional observations from a re-analysis of the deposited data

How the results depend on the processing

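The fit was repeated under 20 alternatives. The number of members called higher, 5 as reported, was 8 without centring, 13 with quantile normalization, 20 with library weights from limma (whose estimation stopped before it converged), 10 with voom on whole reads recovered from RPKM steps and 14 with the replicate number as a block. Of all features, 18.1%, 16.3%, 33.9%, 18.7% and 19.4% were called higher in these fits, against 17.5% as reported. It ran from 1 to 7 when 1 library was left out: 1 without scc2-4 replicate 2 or 3, 3 without WT replicate 2 or scc2-4 replicate 1, 6 without WT replicate 1 and 7 without WT replicate 3. The share of all features called higher fell too, to 5.70% and 5.80% without scc2-4 replicate 2 or 3, 7.88% without scc2-4 replicate 1 and 11.2% without WT replicate 2, and was 20.7% and 18.5% without WT replicate 1 or 3. The number called lower, 0 as reported, was 3 with library weights and 2 after centring on the median 40S gene, an alternative chosen after seeing the data, which also took the median log2 change to 0.07. Whether the replicate numbers pair the libraries cannot be told from these values. Deviations of same-numbered libraries correlated at 0.305, -0.0622 and 0.353 for replicates 1, 2 and 3. The highest correlation of scc2-4 replicate 2 was with WT replicate 1, at 0.132. The 14 members called with the replicate block included the 5.

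The sign of the log2 change turned under at least 1 alternative in 18 members, 11 of them under an alternative other than centring on the median 40S gene, and in none of the 5 called members under the 20 alternatives. Each of the 18 had a log2 change of at most 0.25 in size. The values of genes given in the text follow. RPS28A was at -0.04 after centring on the median 40S gene. RPS27B was at -0.17 in that fit, -0.11 with library weights, -0.09 without WT replicate 1 and -0.03 without scc2-4 replicate 3. ASC1 was at -0.20 after that centring, -0.16 with library weights and -0.11 without WT replicate 1. RPS31 was at -0.18 after that centring, -0.02 with library weights and -0.06 without WT replicate 1 or scc2-4 replicate 3. RPS22B was at 0.02 without WT replicate 2. RAP1 was at -0.13 after that centring, -0.06 with library weights and -0.03 without WT replicate 1, and TSR4 was at 0.00 after that centring. With 1 library left out, values ran from -0.29 to 0.02 for RPS22B, from -0.03 to 0.23 for RAP1, from -0.09 to 0.17 for RPS27B, from -0.11 to 0.17 for ASC1 and from -0.06 to 0.18 for RPS31. The cause was not tested. Members that overlap another feature leave 52 to test when such features are left out. At least 439 reads lay behind each member value.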
